A study of Caenorhabditis elegans with 9 samples.

Results

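On the main axis of variation among the libraries of this series, the germ lines that lay farthest apart came from worms on iff-1 RNAi at 15 °C and from worms on empty vector at 20 °C. The comparison uses 6 of the 9 libraries, 3 from each state, and covers the 8572 of 46245 listed genes whose mean over all 9 libraries reached 1 FPKM (fragments per kilobase of transcript, scaled to library size). At that limit, C40H5.2 stood just outside with a mean of 0.99929 FPKM and Y54G2A.72 just inside with 1.00090 FPKM. The worms were wild-type Caenorhabditis elegans, a nematode whose hermaphrodite germ line makes sperm first and then oocytes. From adulthood they were fed bacteria carrying an RNAi construct against iff-1 at 15 °C (iff-1 RNAi 15C) or an empty vector, EV, at 20 °C (EV 20C). Another group had the empty vector at 15 °C (EV 15C). After 6 days the worms were decapitated, the germ line that extruded was collected and its polyadenylated RNA was sequenced. The 2 states differ in temperature and in RNAi at once, and within this comparison those cannot be told apart. EV 15C shares its temperature with iff-1 RNAi 15C and its vector with EV 20C, and its levels are given beside the results. Feeding RNAi can act throughout the worm, and the level of iff-1 outside the germ line was not measured.

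The gene iff-1 encodes a homologue of eIF5A, a translation factor that helps ribosomes through peptide bonds that form slowly and that carries hypusine, an amino acid made from the polyamine spermidine. The worm has another homologue, iff-2, and iff-1 is the form known for its role in germ cells. The germ line is a tube in which stem cells divide at the distal end under Notch signalling from a somatic niche cell, and in which their daughters enter meiosis and then grow as oocytes. The series title ties iff-1 to the slowing of germ stem cell division, and the comparison shows where germ lines with and without that knockdown stood when temperature was also set apart.

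The libraries were of like depth, at an estimated 35000000 to 40700000 fragments each. More genes reached 1 FPKM in iff-1 RNAi 15C, with 8932, 8681 and 8704, than in EV 20C, with 8120, 8475 and 8219. EV 15C had 8378 to 8495 such genes. The part of this difference in the rises of genes of low level was not tested. Germ line genes were abundant in every library of both states. The yolk receptor gene rme-2 had 493 to 509 FPKM in iff-1 RNAi 15C and 632 to 679 FPKM in EV 20C, and the germ granule helicase gene glh-1 had 228 to 247 FPKM in iff-1 RNAi 15C and 239 to 250 FPKM in EV 20C. The body wall myosin gene unc-54 had 1.97 to 2.56 FPKM in iff-1 RNAi 15C and 1.53 to 3.32 FPKM in EV 20C, and the intestinal factor gene elt-2 stayed below 0.14 FPKM in both. Along the main axis of a principal component analysis, which held 26.5% of the variance, the iff-1 RNAi 15C libraries lay from -25.4 to -16.52, the EV 20C libraries from 20.2 to 25.7 and the EV 15C libraries from -4.33 to 0.99. On the next axis, with 16.36%, iff-1 RNAi 15C replicate 1 and EV 20C replicate 2 stood apart from the others of their groups, at 20.2 and 22.6, as did EV 15C replicate 3, at 11.37 beside -19.58 and -14.51. Nothing in the labels says that replicates were separate cultures. The p-values therefore cover only how much these samples vary, and that variation may be technical.

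**Figure D1:**
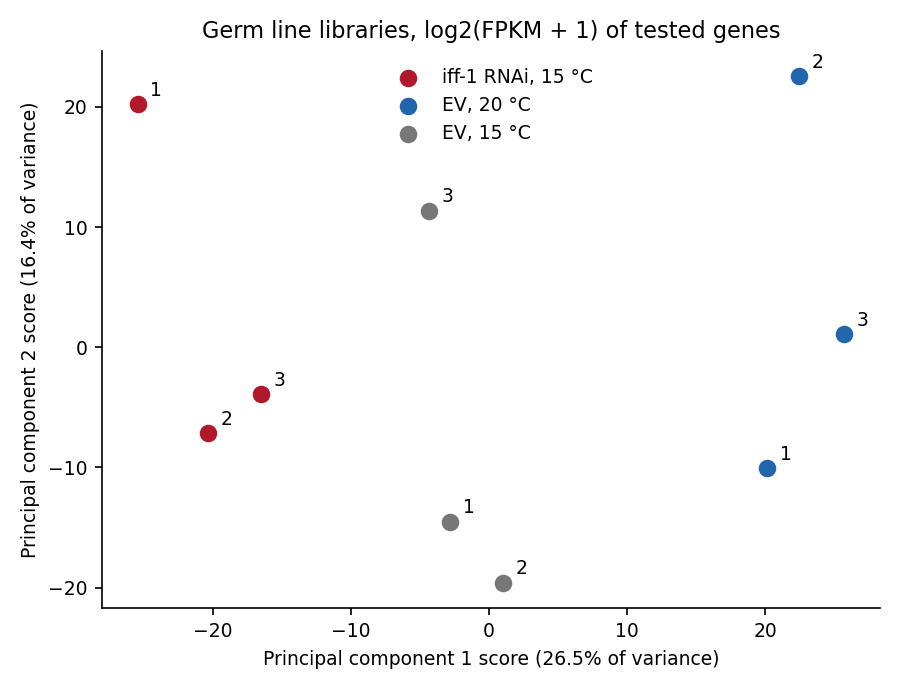
Each point is 1 library, numbered by its replicate, at its scores on the first 2 principal components of log2(FPKM + 1) over the tested genes. The iff-1 RNAi 15C libraries lie to the left, the EV 20C libraries to the right and the EV 15C libraries between them, while replicates of a group spread along the vertical axis.

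The knockdown was clear at its target, iff-1, listed as WBGene00002064 and placed by WBcel235 on the minus strand of chromosome III from 9745862 to 9747193. Its level was 103.9, 58.01 and 37.45 FPKM in iff-1 RNAi 15C, against 2665, 2442 and 2479 FPKM in EV 20C. The EV 15C libraries had 2677, 2653 and 2510 FPKM. All 3 knockdown libraries lay far below all 6 others, and the knockdown mean was 97.4% below that of EV 20C (log2 difference -5.35, SE 0.29, limma adjusted p = 1.73e-05). Permuting these 6 libraries in all 20 arrangements gave an exact two-sided p of 0.1, the smallest possible with 3 against 3. Its homologue iff-2 was lower too, with 16.3, 15.1 and 12.8 FPKM in iff-1 RNAi 15C against 22.9, 27.7 and 25.25 FPKM in EV 20C (log2 -0.74, adjusted p = 0.000432). Reads shared between these related genes, or with T05G5.17 on the strand opposite iff-1, cannot be separated here. Of 8 tested genes of eIF5A, hypusine and polyamines, 1 rose and 3 fell, with both homologues among those that fell. The gene that rose was odc-1, the ornithine decarboxylase that starts polyamine synthesis, which had 10.2, 8.62 and 7.68 FPKM in iff-1 RNAi 15C and 4.69, 6.42 and 5.89 FPKM in EV 20C. Its call (log2 0.56, adjusted p = 0.0154) was lost without iff-1 RNAi 15C replicate 1, at an adjusted p of 0.0601.

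The states diverged in many genes by small amounts. With limma on log2(FPKM + 1) and a Benjamini-Hochberg adjusted p under 0.05, 4193 genes (48.9%) were called, of which 1759 (20.5% of those tested) were higher and 2434 (28.4%) lower in iff-1 RNAi 15C. The groups did not overlap in 4842 genes (56.5%), and 4094 of the called genes were among them. The median absolute log2 difference of the called genes was 0.35, and 2865 of them differed by less than 0.5. Only 132 genes were at least 2-fold higher and 65 at least 2-fold lower among those called. Unless EV 15C is named, all differences are iff-1 RNAi 15C minus EV 20C in log2(FPKM + 1), a scale that understates how far genes of low level moved. The adjusted p-values are limma's.

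The largest rise among protein-coding genes without overlap between the groups was in fog-3, a gene of the Tob family that germ cells need to become sperm. It had 23.7, 18.2 and 14.9 FPKM in iff-1 RNAi 15C, against 2.55, 3.12 and 2.34 FPKM in EV 20C, and 4.31 to 7.26 FPKM in EV 15C. Every knockdown library stood above all the others (log2 2.42, SE 0.20, adjusted p = 7.85e-05). The other regulator of sperm fate of this kind, the CPEB gene fog-1, had 167.3, 164.1 and 139.8 FPKM in iff-1 RNAi 15C, against 87.6, 95.6 and 85.4 FPKM in EV 20C (log2 0.80, adjusted p = 0.00012). In EV 15C it had 87.5 to 97.2 FPKM, which overlapped EV 20C. The gene snpc-1.3, whose product drives transcription of the piRNAs of the male germ line, came next with 38.2, 29.2 and 20.9 FPKM in iff-1 RNAi 15C against 4.46, 5.47 and 5.47 FPKM in EV 20C (log2 2.28, adjusted p = 0.000111). Its exons overlap acl-6 on the other strand, which leaves its value uncertain. These rises were not matched across sperm genes. Of 65 genes of spermatogenesis looked for, 8 reached the expression limit. Of those 2 rose and 2 fell (25% each), near the 20.5% and 28.4% of all tested genes. The sperm channel gene spe-41 was 1 of those that rose, with 2.37, 1.52 and 1.34 FPKM in iff-1 RNAi 15C and 0.72, 0.60 and 0.35 FPKM in EV 20C (adjusted p = 0.00904). The number of these genes called lower was 0 when iff-1 RNAi 15C replicate 1 or 2 or EV 20C replicate 1 was left out, and 1 when EV 20C replicate 2 was. In the list of sex determination and sperm or oocyte fate, 4 of 23 genes rose (17.4%) and 7 fell (30.4%). These shares were near the 20.5% and 28.4% of all tested genes, with a median of -0.02 beside -0.02. The members that fell included tra-3, a calpain protease of the sex determination pathway, with 11.96, 11.8 and 13.4 FPKM in iff-1 RNAi 15C and 17.9, 22.1 and 23.2 FPKM in EV 20C.

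**Figure D2:**
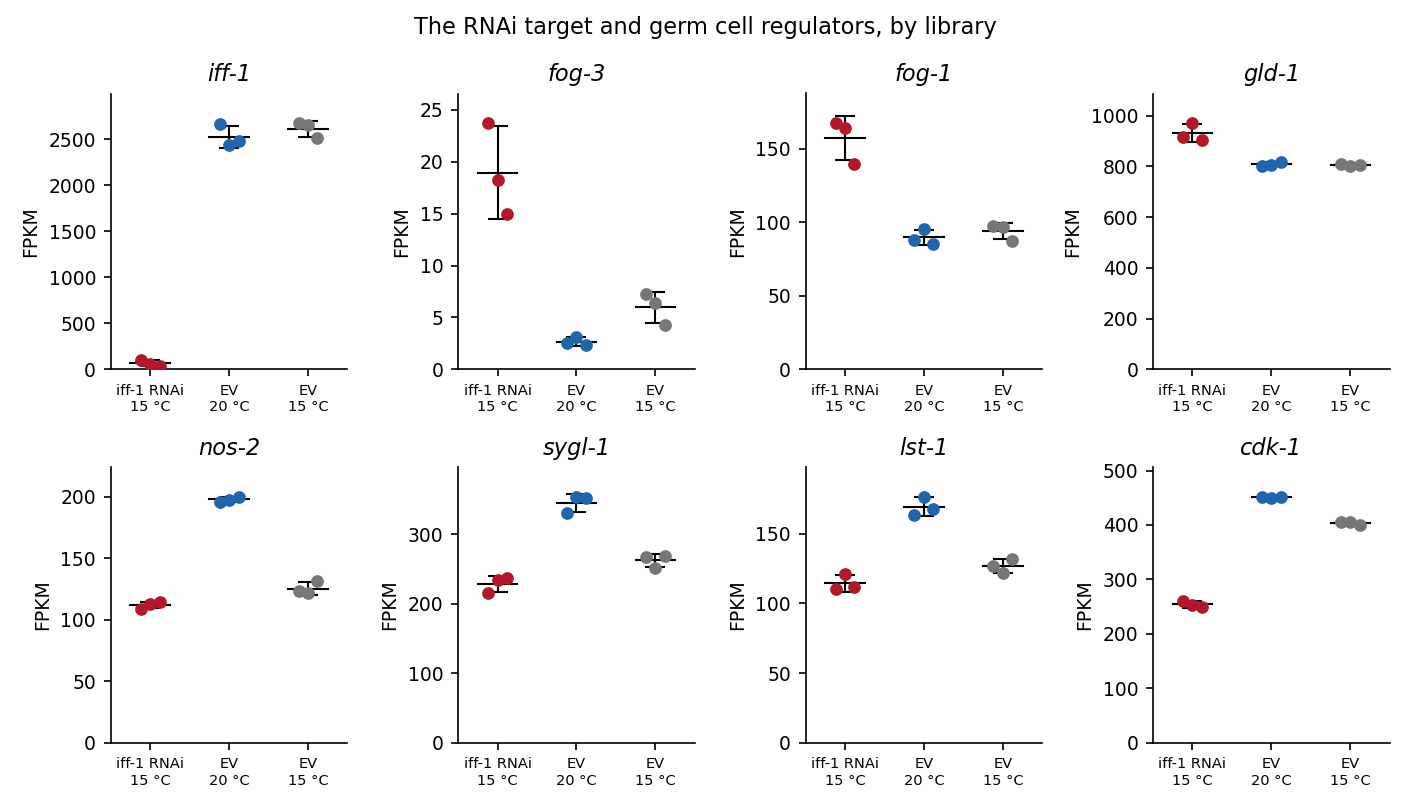
Points are the FPKM of single libraries, horizontal lines the group means and bars the SD (n = 3), on axes that start at 0. The target iff-1 and the genes nos-2, sygl-1, lst-1 and cdk-1 were lower in iff-1 RNAi 15C than in EV 20C. The genes fog-3, fog-1 and gld-1 were higher.

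Genes of stem cell signalling and meiotic entry were called in both directions, in shares close to those of all tested genes. The gene sygl-1, a direct target of the Notch receptor GLP-1 in stem cells, had 215, 234 and 237 FPKM in iff-1 RNAi 15C, against 330, 354 and 352 FPKM in EV 20C (log2 -0.59, SE 0.05, adjusted p = 6.42e-05). The other such target, lst-1, averaged 114 ± 6.05 FPKM in iff-1 RNAi 15C and 169 ± 6.85 FPKM in EV 20C (SD, n = 3 each; log2 -0.56, adjusted p = 8.04e-05). In EV 15C, sygl-1 had 251 to 268 FPKM and lst-1 had 121.6 to 131.8 FPKM, closer to the knockdown than to EV 20C. The products of both genes act with the RNA-binding proteins FBF-1 and FBF-2, and fbf-2 (log2 -0.54) and fbf-1 (-0.36) were lower as well, both picked out after their values were seen. The receptor gene glp-1 itself moved the other way by a small amount, with 109.7, 107.8 and 107.6 FPKM in iff-1 RNAi 15C against 93.1, 99.5 and 97.7 FPKM in EV 20C (log2 0.16, adjusted p = 0.00451), and it lost its call when libraries were scaled without their 10 highest genes (adjusted p = 0.0967). Higher also were gld-1, a translational repressor that promotes meiotic entry, with 914, 971 and 905 FPKM in iff-1 RNAi 15C against 801, 806 and 818 FPKM in EV 20C, and the RNA-binding gene daz-1, with 428, 420 and 398 FPKM in iff-1 RNAi 15C against 327, 323 and 320 FPKM in EV 20C. The Nanos-family gene nos-2, which acts in the germ cell precursors of the embryo, showed the largest fall of the list. It had 109, 113.1 and 114 FPKM in iff-1 RNAi 15C, against 196, 197 and 200.2 FPKM in EV 20C (log2 -0.81, SE 0.03, adjusted p = 7.43e-06), with 121.8 to 131 FPKM in EV 15C. In all, 4 of 26 genes of this list rose (15.4%) and 8 fell (30.8%), beside 20.5% and 28.4% of all tested genes. The 14 not called included lag-1, gld-2, gld-3, gld-4, nos-3, puf-3 and puf-11, and puf-8 was higher (log2 0.22). In whole germ lines, fewer cells of a type and less RNA per cell cannot be told apart.

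Genes of cell division were called lower in a larger share than all tested genes, of which 28.4% were lower and 20.5% higher. Of 92 cell cycle and mitosis genes, 45 fell (48.9%) and 6 rose (6.52%), with a median log2 of -0.11. The number that rose was 3 without iff-1 RNAi 15C replicate 2 or 3, 11 under quantile normalization and 2 when scaled without the 10 highest genes. The smallest adjusted p of all the genes in these lists belonged to cdk-1, the kinase that drives entry into mitosis and meiotic division. It had 261, 252 and 250 FPKM in iff-1 RNAi 15C, against 452, 449 and 451 FPKM in EV 20C (log2 -0.82, SE 0.02, adjusted p = 1.46e-06), and 400 to 405 FPKM in EV 15C. All 3 knockdown libraries thus lay below the 6 vector libraries. The gene lies close to iff-1, on the plus strand of chromosome III from 9747472 to 9748852. Whether its fall is tied to that position was not tested. The phosphatase gene cdc-25.3, of the family that activates such kinases, had 35.4, 33.1 and 41.8 FPKM in iff-1 RNAi 15C against 65.7, 70.5 and 67.4 FPKM in EV 20C (log2 -0.87, adjusted p = 8.28e-05). In EV 15C, cdc-25.3 had 38.7 to 39.99 FPKM, within the range of the knockdown. The kinase gene cdk-4, of the G1 phase, averaged 5.56 ± 0.235 FPKM in iff-1 RNAi 15C and 11.94 ± 0.146 FPKM in EV 20C (SD, n = 3 each; log2 -0.98). Among DNA replication genes 28 of 47 fell (59.6%) and 3 rose (6.38%), with a median of -0.15 (5 rose under quantile normalization). All 6 subunits of the MCM helicase, which unwinds DNA at the replication fork, were lower, with log2 differences of -0.43 to -0.15. One of them, mcm-3, had 162.4, 161.5 and 162.4 FPKM in iff-1 RNAi 15C against 194, 197 and 198 FPKM in EV 20C. The gene for the dUTPase dut-1, which keeps uracil out of DNA, fell most of the list, with 315, 306 and 336 FPKM in iff-1 RNAi 15C against 463, 465 and 472 FPKM in EV 20C (log2 -0.55, adjusted p = 2.95e-05). Thymidylate synthase, tyms-1, which makes the thymidine nucleotide, had 149.6, 147.2 and 154.9 FPKM in iff-1 RNAi 15C and 193.6, 194.9 and 187.1 FPKM in EV 20C. Against EV 15C, the median of the DNA replication list was -0.04 in iff-1 RNAi 15C and 0.13 in EV 20C. Both of these values use the same EV 15C libraries.

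Meiotic prophase genes were called in both directions. Of 73 genes, 13 rose (17.8%) and 19 fell (26%), near the 20.5% and 28.4% of all tested genes (median -0.03). Under scaling without the 10 highest genes 7 rose. The RAD-51 paralogue gene rfs-1, which acts in recombinational repair, had 18.7, 17.5 and 21.1 FPKM in iff-1 RNAi 15C against 9.64, 10.8 and 10.5 FPKM in EV 20C (log2 0.83, adjusted p = 0.000127), and 17.1 to 18.7 FPKM in EV 15C. The nuclease gene mus-81, which resolves recombination intermediates, was higher by 0.27, and the cohesin gene scc-1 and the polo-like kinase gene plk-2 were lower (log2 -0.28 and -0.18).

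Oocyte and eggshell genes were called lower far more than higher. Of 58 genes in that list, 31 fell (53.4%) and 4 rose (6.9%), beside 28.4% and 20.5% of all tested genes (median -0.15). The chitin synthase gene chs-1, which makes the chitin layer of the eggshell, had 103.1, 110.1 and 116.1 FPKM in iff-1 RNAi 15C against 168, 179.4 and 179.5 FPKM in EV 20C (log2 -0.67, SE 0.05, adjusted p = 4.96e-05), and 145 to 155 FPKM in EV 15C. The eggshell proteoglycan gene cpg-1 had 1587, 1776 and 2026 FPKM in iff-1 RNAi 15C against 2427, 2509 and 2508 FPKM in EV 20C. The gene memi-2, needed for the passage from meiosis to mitosis in the embryo, had 135.4, 134.7 and 134.3 FPKM in iff-1 RNAi 15C against 183, 177 and 177 FPKM in EV 20C. Nothing overlapped in these 3 genes. The RNA-binding gene sqd-1 went the other way, with 664, 658 and 631 FPKM in iff-1 RNAi 15C against 446, 480 and 462 FPKM in EV 20C (log2 0.49, adjusted p = 4.07e-05). Germ granule and small RNA genes were mixed, with 29 of 74 lower (39.2%) and 13 higher (17.6%), and a median of -0.08 (8 higher when scaled without the 10 highest genes). Among the lower ones were meg-4, a scaffold gene of embryonic germ granules, with 21.5, 20.2 and 21.4 FPKM in iff-1 RNAi 15C against 36.7, 44.7 and 43.3 FPKM in EV 20C (log2 -0.95), and tofu-6, which acts in piRNA production, with 146.5, 146.3 and 147.7 FPKM in iff-1 RNAi 15C against 209, 202 and 204 FPKM in EV 20C (log2 -0.48, adjusted p = 1.565e-05). Among the higher ones was simr-1, which acts in small RNA amplification, with 99.5, 90.3 and 87.2 FPKM in iff-1 RNAi 15C against 62.9, 58.1 and 59.3 FPKM in EV 20C (log2 0.61).

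**Figure D3:**
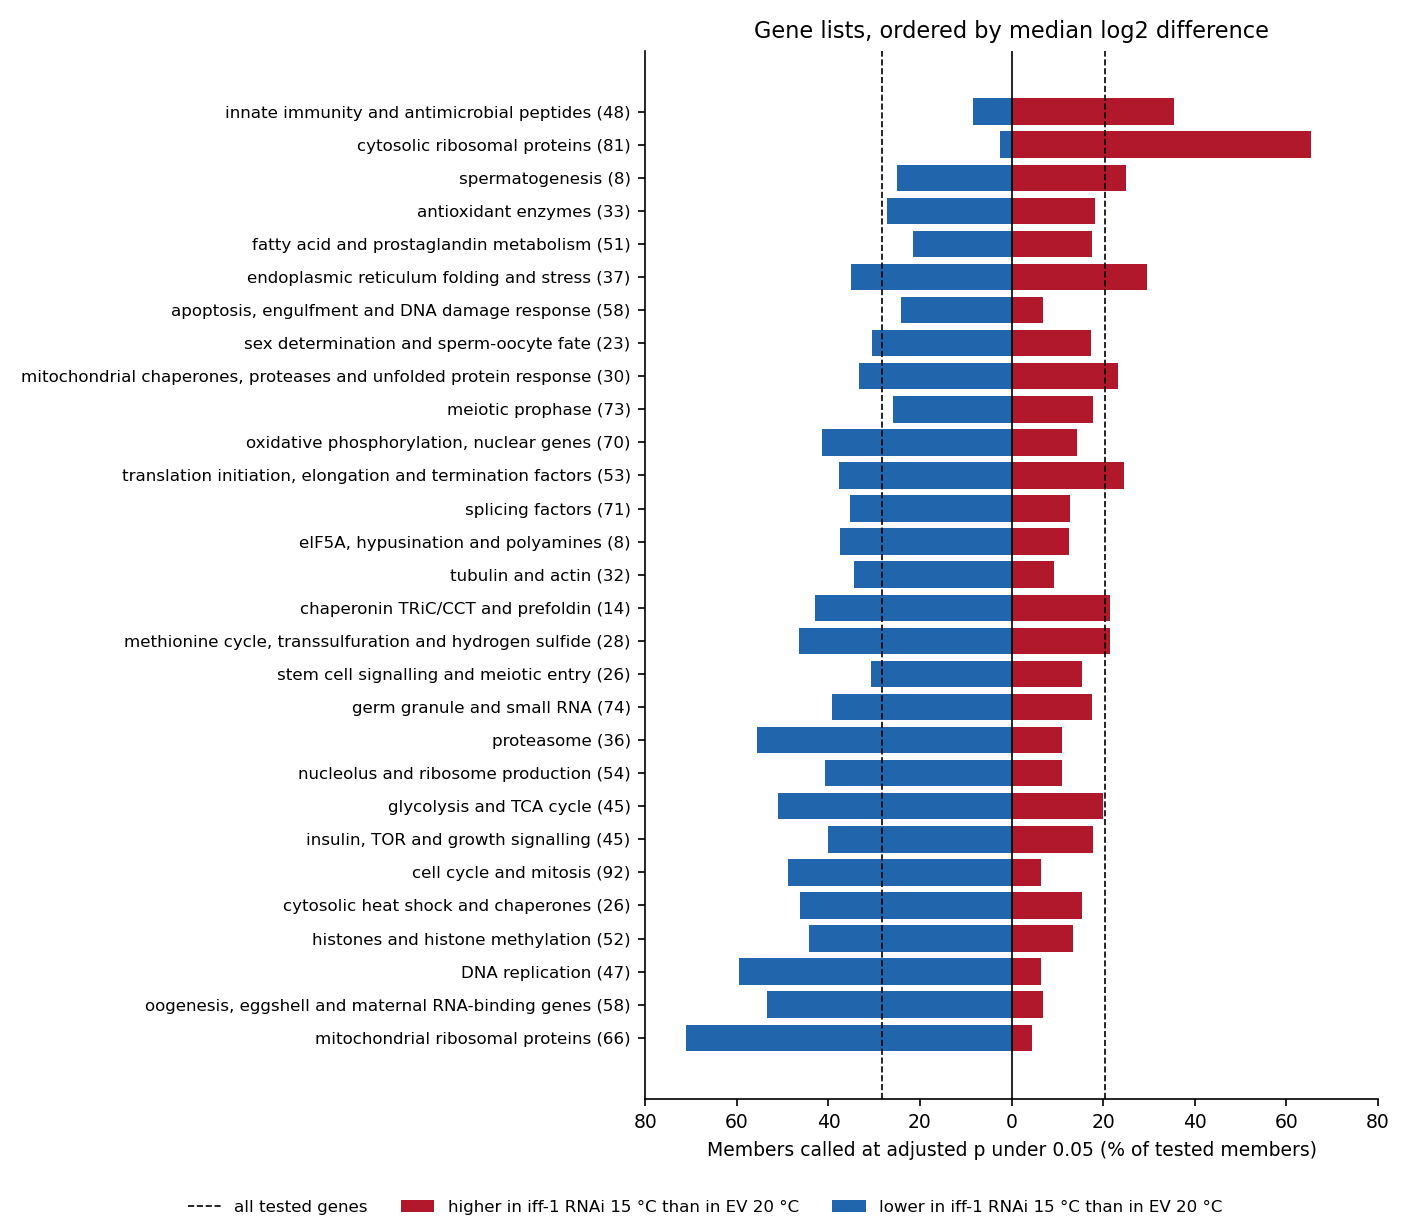
Bars show the share of the tested members of each gene list that were called higher (right, red) or lower (left, blue) in iff-1 RNAi 15C, with the number tested in brackets. Dashed lines mark the shares for all tested genes, 20.5% higher and 28.4% lower. Cytosolic ribosomal proteins extend farthest to the right and mitochondrial ribosomal proteins farthest to the left.

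Ribosomal protein genes split between those of the cytosol and those of mitochondria. Of 81 genes for cytosolic ribosomal proteins, 53 were higher and 2 lower in iff-1 RNAi 15C (median log2 0.27). The number that rose was 38 under median ratio scaling, 51 under scaling without the 10 highest genes and 27 under quantile normalization, where 21 fell and the median was 0.04. The small subunit protein gene rps-28 had 6802, 6416 and 6307 FPKM in iff-1 RNAi 15C against 4961, 4179 and 4383 FPKM in EV 20C (log2 0.53, adjusted p = 0.000612). The stalk protein gene rla-1 had 5629, 5281 and 5544 FPKM in iff-1 RNAi 15C against 4350, 3222 and 3578 FPKM in EV 20C, and rpl-36.A, of the large subunit, had 7383, 7218 and 7183 FPKM in iff-1 RNAi 15C against 5324, 4789 and 4759 FPKM in EV 20C. EV 20C replicate 1 lay nearest to the knockdown in all 3 genes. The 2 that fell were the near-identical genes rpl-41.1 and rpl-41.2, which encode the shortest ribosomal protein and whose reads cannot be assigned with certainty; rpl-41.2 lost its call without iff-1 RNAi 15C replicate 1 (adjusted p = 0.07096), under quantile normalization (0.1747) and in the 6 libraries alone (0.05651). The gene rps-3 was listed at 0 in all 6 libraries, as can happen where an estimate fails. By subunit, 24 of 31 small subunit genes and 29 of 50 large subunit genes were higher. All 83 genes of the list together summed to 327264, 326258 and 319043 FPKM in iff-1 RNAi 15C, against 299525, 245818 and 260734 FPKM in EV 20C and 288099 to 308900 FPKM in EV 15C.

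The 66 mitochondrial ribosomal protein genes, which are encoded in the nucleus, moved the other way. In iff-1 RNAi 15C, 47 were lower and 3 higher (median -0.31), and 42 to 49 were lower under the 3 scalings. The small subunit gene mrps-22 had 34.1, 36.4 and 38.96 FPKM in iff-1 RNAi 15C against 62.6, 60.3 and 60.99 FPKM in EV 20C (log2 -0.73, SE 0.05, adjusted p = 3.44e-05), and the large subunit gene mrpl-49 had 35.6, 37.05 and 41.5 FPKM in iff-1 RNAi 15C against 74.2, 65.04 and 65.1 FPKM in EV 20C (log2 -0.82). Of the small subunit genes 20 of 26 were lower, and of the large subunit genes 27 of 40. In EV 15C, mrps-22 had 61.1 to 62.5 FPKM and mrpl-49 had 57.96 to 60.3 FPKM, levels close to those of EV 20C. Across the list, the median difference from EV 15C was -0.27 in iff-1 RNAi 15C and 0.04 in EV 20C, again with shared EV 15C libraries.

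**Figure D4:**
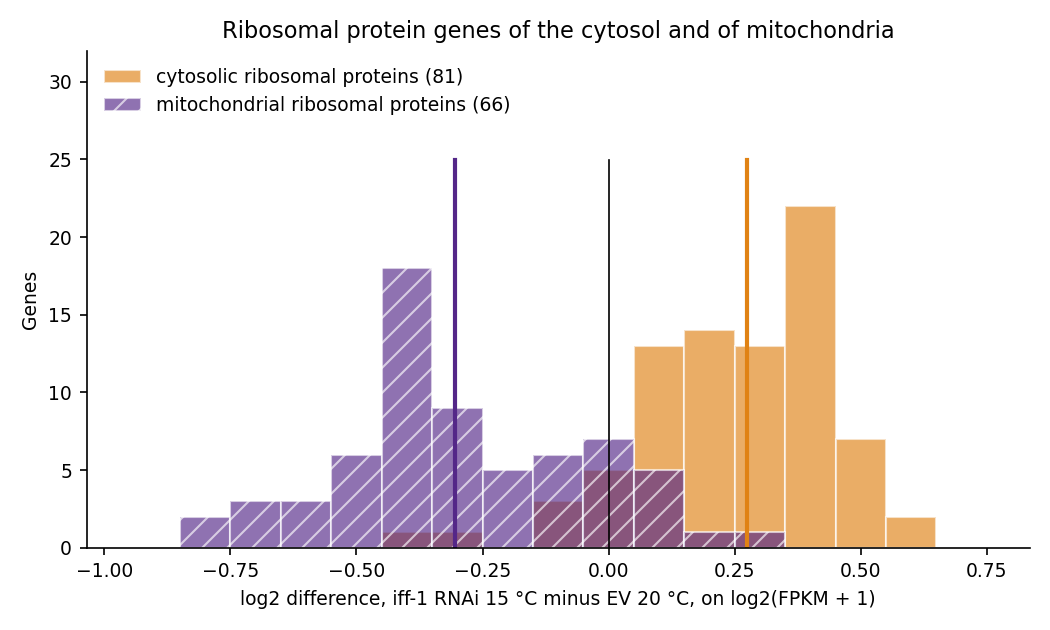
Histogram of the log2 difference of each tested ribosomal protein gene, in bins of equal width, with the list medians as vertical lines (0.27 for the cytosol, -0.31 for mitochondria). Most cytosolic genes lie to the right of 0 and most mitochondrial genes to the left.

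Translation factors were called in both directions. Of 53 genes, 13 were higher (24.5%) and 20 lower (37.7%), beside 20.5% and 28.4% of all tested genes (median -0.06). The genes of elongation factors eEF1 and eEF2 were higher in 5 of 6 cases and lower in 0, with log2 differences of 0.20 to 0.38. Of 13 subunit genes of the initiation factor eIF3, which brings the ribosome to the messenger RNA, 5 were lower and 1 higher, and of 5 subunit genes of eIF2B, the exchange factor of eIF2, 3 were lower. These subgroups were formed after the values were seen. The largest fall in eIF3 was in eif-3.J, with 48.7, 44.8 and 48.19 FPKM in iff-1 RNAi 15C against 93.6, 82.98 and 87.6 FPKM in EV 20C (log2 -0.88, SE 0.06, adjusted p = 4.07e-05), followed by eif-3.H, with 86.05, 89.3 and 97.7 FPKM in iff-1 RNAi 15C against 141.1, 135 and 146 FPKM in EV 20C (log2 -0.62). The poly(A)-binding protein gene pab-1 was higher, with 1740, 1770 and 1753 FPKM in iff-1 RNAi 15C against 1320, 1191 and 1196 FPKM in EV 20C (log2 0.51, adjusted p = 8.04e-05). In the nucleolus, where ribosomes are made, 22 of 54 genes were lower and 6 higher (median -0.09; 3 higher without EV 20C replicate 3). The exosome subunit gene exos-7 had 42.9, 44.1 and 46.1 FPKM in iff-1 RNAi 15C against 68.1, 61.1 and 64.1 FPKM in EV 20C, and the rRNA methyltransferase gene rrp-8 had 109.9, 103.4 and 109.4 FPKM in iff-1 RNAi 15C against 81.3, 88.3 and 80.4 FPKM in EV 20C.

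Protein folding genes were called in both directions within each compartment, as were all tested genes (28.4% lower and 20.5% higher). Of 26 cytosolic heat shock and chaperone genes 12 were lower (46.2%) and 4 higher (15.4%). The small heat shock protein gene sip-1 had the largest drop in FPKM of any protein-coding gene, with 6092, 6816 and 6219 FPKM in iff-1 RNAi 15C against 10452, 10348 and 10390 FPKM in EV 20C (log2 -0.71, SE 0.06, adjusted p = 8.04e-05), and 7889 to 8239 FPKM in EV 15C. The constitutive Hsp70 gene hsp-1 had 1635, 1768 and 1821 FPKM in iff-1 RNAi 15C against 2281, 2121 and 2214 FPKM in EV 20C, and sti-1, a bridge between Hsp70 and Hsp90, had 122.2, 130.1 and 142.4 FPKM in iff-1 RNAi 15C against 234.8, 208 and 221 FPKM in EV 20C (log2 -0.75). The Hsp90 gene hsp-90 was higher, with 2248, 2101 and 2120 FPKM in iff-1 RNAi 15C against 1740, 1743 and 1744 FPKM in EV 20C (log2 0.31), and so was hsp-110, of the Hsp70 exchange factors (log2 0.35, adjusted p = 4.61e-05). Of the CCT chaperonin, which folds tubulin and actin, cct-5 had 582, 556 and 543 FPKM in iff-1 RNAi 15C against 406, 386 and 389 FPKM in EV 20C (log2 0.51, adjusted p = 3.75e-05). Its partner subunit genes cct-6 (log2 -0.21) and cct-7 (-0.18) were lower. Over CCT and its helper prefoldin, 6 of 14 genes were lower and 3 higher.

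The proteasome, which degrades tagged proteins, had 20 of 36 genes lower and 4 higher (median -0.09). Under quantile normalization 12 were lower, and 2 were higher under median ratio scaling and 1 when scaled without the 10 highest genes. The base ATPase gene rpt-6 had 171, 175 and 172 FPKM in iff-1 RNAi 15C against 222, 232 and 225 FPKM in EV 20C (log2 -0.39, adjusted p = 4.59e-05), and the lid gene rpn-6.1 fell by 0.15. In the endoplasmic reticulum 13 of 37 genes were lower (35.1%) and 11 higher (29.7%), beside 28.4% and 20.5% of all tested genes. The largest falls were in the protein disulfide isomerase genes pdi-6, with 49.3, 45.99 and 49.5 FPKM in iff-1 RNAi 15C against 92.7, 115 and 108.8 FPKM in EV 20C (log2 -1.11), and pdi-2 (log2 -1.06). The worm's BiP chaperones went in opposite directions: hsp-3 had 103.6, 102.1 and 109.7 FPKM in iff-1 RNAi 15C against 169, 225 and 196 FPKM in EV 20C (log2 -0.89, adjusted p = 0.0001475), and hsp-4 had 320.4, 325 and 308 FPKM in iff-1 RNAi 15C against 277, 242 and 255 FPKM in EV 20C (log2 0.30, adjusted p = 0.00141). The genes pdi-6, pdi-2 and hsp-3 lie on the X chromosome and hsp-4 on chromosome II. The mitochondrial Hsp70 gene hsp-6 was higher, with 793, 744 and 777 FPKM in iff-1 RNAi 15C against 585, 564 and 528 FPKM in EV 20C (log2 0.47), while atfs-1, the transcription factor of the mitochondrial unfolded protein response, was lower (log2 -0.26). Over mitochondrial chaperones, proteases and that response, 10 of 30 genes were lower (33.3%) and 7 higher (23.3%), near the shares of all tested genes.

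Genes of the X chromosome were called lower in a larger share than those of the autosomes, and their mean level relative to autosomal genes was lower in each iff-1 RNAi 15C library. In the worm, the X is largely silent in most germ cells and becomes active in growing oocytes. Of the tested X genes, 386 and 445 were in quartiles 1 and 2 of mean FPKM, counted from the lowest. Of 915 tested X genes, 434 were lower (47.4%) and 68 higher (7.43%), with a median log2 difference of -0.30 (26 higher at a mean of at least 5 FPKM). Of 7600 autosomal genes, 1994 were lower (26.2%) and 1678 higher (22.1%), with a median of -0.002. The contrast held at matched levels: in quartile 2, 299 of 445 X genes were lower and 17 higher, and 524 of 1670 autosomal genes were lower and 321 higher. In quartile 3, 35 of 48 X genes were lower, as were 639 of 2089 autosomal genes. The contrast in genes called lower was smaller at both ends. In quartile 1, 22% of X genes and 9.35% of autosomal genes were lower, and the median of X genes was -0.02. In quartile 4, the shares lower were 41.7% of 36 X genes and 31.8% of autosomal genes. The mean log2(FPKM + 1) of X genes minus that of autosomal genes was -1.96, -2.03 and -1.97 in the iff-1 RNAi 15C libraries, against -1.88, -1.61 and -1.71 in EV 20C, and -1.84 to -1.77 in EV 15C. All 3 knockdown libraries lay below the other 6, and the EV 20C libraries spread the most. The exact two-sided permutation test of this value between iff-1 RNAi 15C and EV 20C gave p = 0.1, the smallest that 3 against 3 allows. Leaving out any 1 library left 381 to 467 X genes lower and 49 to 89 higher. The share of all FPKM held by tested X genes overlapped between the states, at 1.729% to 2.019% in iff-1 RNAi 15C and 1.995% to 2.326% in EV 20C.

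**Figure D5:**
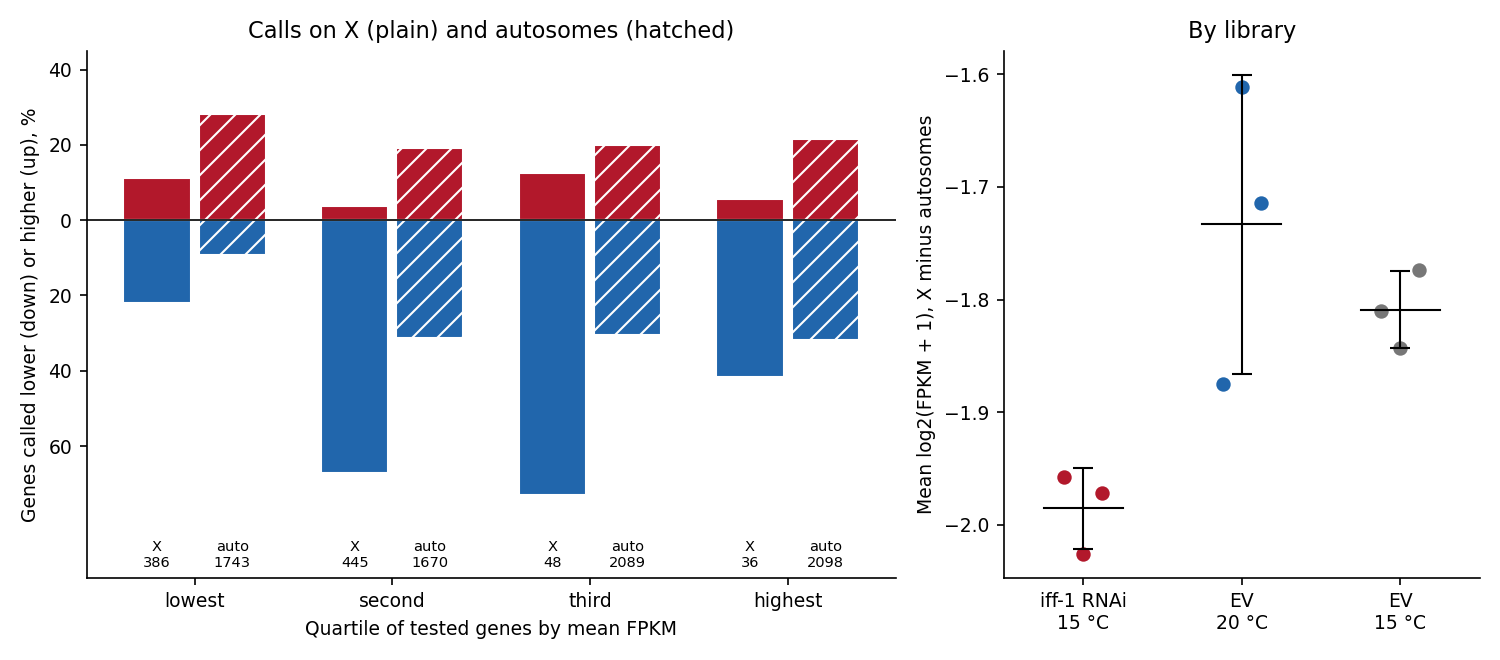
Left, the share of tested genes called higher (up) or lower (down) in iff-1 RNAi 15C on the X (plain bars) and the autosomes (hatched bars), by quartile of mean FPKM, with the number of genes under each bar. Right, the mean log2(FPKM + 1) of X genes minus autosomal genes, where points are libraries, lines the group means and bars the SD (n = 3). The knockdown libraries lie from -2.03 to -1.96, below all others.

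X genes of the lists differed from list to list. All 6 tested X genes among the germ granule genes were lower, as were 7 of 8 among endoplasmic reticulum genes, 6 of 7 among oxidative phosphorylation genes and 6 of 8 among glycolysis and TCA cycle genes. Other lists went the other way or held few calls: 4 of 8 X genes of innate immunity were higher and 1 lower, 3 of 4 of the cuticle were higher and 0 lower, 2 of 7 of the intestine were higher and 0 lower, and 0 of 6 muscle genes were called. The energy sensor gene aak-2, a catalytic subunit of AMPK, had 6.097, 6.069 and 6.796 FPKM in iff-1 RNAi 15C against 13.4, 15.8 and 15.5 FPKM in EV 20C (log2 -1.12, SE 0.08, adjusted p = 4.67e-05), and 9.35 to 9.93 FPKM in EV 15C. The splicing gene snrp-40.1, of the U5 particle, had 28.7, 26.3 and 29.4 FPKM in iff-1 RNAi 15C against 51.6, 60.5 and 55.4 FPKM in EV 20C (log2 -0.96). The gene cbs-1 encodes cystathionine beta-synthase, which makes hydrogen sulfide and begins cysteine synthesis from homocysteine. It had 1.97, 1.69 and 1.701 FPKM in iff-1 RNAi 15C against 3.84, 4.70 and 4.54 FPKM in EV 20C (log2 -0.94, adjusted p = 0.000272), and 3.15 to 3.53 FPKM in EV 15C.

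Metabolic lists differed from each other. Of 45 genes of glycolysis and the TCA cycle, 23 were lower (51.1%) and 9 higher (20%), beside 28.4% and 20.5% of all tested genes (median -0.10). The gene dld-1, for the dehydrogenase subunit shared by the pyruvate and 2-oxoglutarate complexes, averaged 117.7 ± 6.65 FPKM in iff-1 RNAi 15C and 208.5 ± 7.80 FPKM in EV 20C (SD, n = 3 each; log2 -0.82, SE 0.04, adjusted p = 1.73e-05). The gluconeogenic gene fbp-1 had 84.3, 81.6 and 80.5 FPKM in iff-1 RNAi 15C against 118, 117 and 123 FPKM in EV 20C (log2 -0.54), and the aldolase gene aldo-2 had 504, 525 and 565 FPKM in iff-1 RNAi 15C against 708, 705 and 728 FPKM in EV 20C. Nuclear genes of oxidative phosphorylation were lower in 29 (41.4%) and higher in 10 (14.3%) of 70 cases. There were 17 higher without EV 20C replicate 1, and 5 to 20 under the scalings. The gene sco-1, for an assembly factor of cytochrome oxidase, had 21.4, 21.2 and 21.3 FPKM in iff-1 RNAi 15C against 36.6, 32.1 and 34.5 FPKM in EV 20C. Of 30 complex I genes, 15 were lower and 2 higher. In the methionine cycle, transsulfuration and hydrogen sulfide list 13 of 28 genes were lower (46.4%) and 6 higher (21.4%). The number higher was 3 without iff-1 RNAi 15C replicate 1 and 2 when scaled without the 10 highest genes. There, cysl-3, of the cysteine synthase family, had 31.7, 33.1 and 34.4 FPKM in iff-1 RNAi 15C against 53.3, 58.05 and 57.6 FPKM in EV 20C (log2 -0.75), and ahcy-1, which clears S-adenosylhomocysteine, had 1214, 1244 and 1177 FPKM in iff-1 RNAi 15C against 950, 934 and 919 FPKM in EV 20C (log2 0.37). Of 33 antioxidant genes 9 were lower (27.3%) and 6 higher (18.2%), near the 28.4% and 20.5% of all tested genes, with a median of 0.06. Those lower included prdx-2, a peroxiredoxin, with 850, 888 and 898 FPKM in iff-1 RNAi 15C against 1250, 1187 and 1234 FPKM in EV 20C, gsr-1, glutathione reductase (log2 -0.61), and sod-2, a mitochondrial superoxide dismutase (log2 -0.52). Without EV 20C replicate 3, 2 antioxidant genes were higher, and without iff-1 RNAi 15C replicate 1, 3 were. Of 51 fatty acid and prostaglandin genes 11 were lower (21.6%) and 9 higher (17.6%), both below the shares of all tested genes, with a median of 0.05. Among their acyl-CoA dehydrogenase genes, which begin the breakdown of fatty acids, 6 of 8 were lower and 2 higher, a group formed after the values were seen. The prostaglandin synthase gene pges-2 did not pass the test except under quantile normalization (adjusted p = 0.0193), with 122.8, 118.1 and 130.1 FPKM in iff-1 RNAi 15C and 120.5, 110.7 and 113.2 FPKM in EV 20C (log2 0.11, adjusted p = 0.108).

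Many genes of the cuticle, and of the caenacin and nlp defence peptides, were higher in iff-1 RNAi 15C, at low levels. Of 17 tested genes of epidermis and cuticle, 13 rose and 0 fell (median log2 0.95). The number that rose was 6 when any of iff-1 RNAi 15C replicate 1, EV 20C replicate 1 and EV 20C replicate 3 was left out, and 8 without a filter on low values or at a mean of at least 5 FPKM. The collagen gene col-101 had 13.6, 6.68 and 8.34 FPKM in iff-1 RNAi 15C against 2.76, 4.36 and 2.13 FPKM in EV 20C (log2 1.35, adjusted p = 0.00477), and 6.82 to 11.18 FPKM in EV 15C. The cuticle collagen gene dpy-17 was more even, with 13.3, 13.8 and 12.4 FPKM in iff-1 RNAi 15C against 8.17, 7.44 and 5.98 FPKM in EV 20C. Over the whole list of 53 genes, the summed level was 196.3, 121.5 and 128.6 FPKM in iff-1 RNAi 15C, against 57.55, 98.98 and 59.1 FPKM in EV 20C and 106.9 to 168.7 FPKM in EV 15C. Within it, col-17, col-81 and dpy-4 were listed at 0 in both states. Of 48 genes of innate immunity and antimicrobial peptides, 17 rose and 4 fell (median 0.31), 27 were not called, and 7 rose and 2 fell at a mean of at least 5 FPKM. The summed level of the whole list ran the other way, at 2954 to 3084 FPKM in iff-1 RNAi 15C against 3186 to 3572 FPKM in EV 20C, without overlap. An abundant member, the C-type lectin gene clec-87, had 1866, 2010 and 2135 FPKM in iff-1 RNAi 15C against 2628, 2736 and 2750 FPKM in EV 20C (log2 -0.43, adjusted p = 0.0002825). The caenacin peptide genes were higher in 5 of 6 cases and lower in 1, and the nlp peptide genes of this list in 6 of 7, families that the worm's epidermis is known to make. The caenacin gene cnc-2 had 4.52, 4.76 and 3.35 FPKM in iff-1 RNAi 15C against 1.38, 0.93 and 0.87 FPKM in EV 20C (log2 1.34). The saposin-like gene spp-9 was the exception in size, with 0.80, 0.13 and 0.30 FPKM in iff-1 RNAi 15C against 7.21, 53.65 and 22.8 FPKM in EV 20C (log2 -3.99, SE 0.59, adjusted p = 0.000798), and 0.16 to 1.01 FPKM in EV 15C.

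Markers of other cells that could come along with an extruded gonad were read for the same libraries. The 29 intestinal genes summed to 990 to 1288 FPKM in iff-1 RNAi 15C and to 926 to 1200 FPKM in EV 20C. Most of each sum was far-2, with 743.7, 724.1 and 707.5 FPKM in iff-1 RNAi 15C and 740.5, 862.9 and 831.7 FPKM in EV 20C. The sums therefore say little about the other intestinal genes. The median log2 difference of the 20 tested genes was 0.80, and 3 of them rose (15%) and 1 fell (5%). Leaving out EV 20C replicate 2 gave 6 that rose, leaving out EV 20C replicate 3 gave 0, leaving out iff-1 RNAi 15C replicate 1 gave 1, and leaving out any of the 6 libraries except EV 20C replicate 1 gave 0 that fell. The yolk protein genes vit-3 (log2 1.26, adjusted p = 0.0195) and vit-4 (1.29, adjusted p = 0.02) were among them, and each lost its call without iff-1 RNAi 15C replicate 1 (adjusted p = 0.07117 and 0.07219) or EV 20C replicate 3 (0.07191 and 0.07469). The yolk gene vit-2 had 74.7, 25.22 and 33.3 FPKM in iff-1 RNAi 15C and 19.6, 36.5 and 15.8 FPKM in EV 20C, and did not pass (adjusted p = 0.258). Muscle genes summed to 176 to 207 FPKM in iff-1 RNAi 15C and 156 to 234 FPKM in EV 20C, with 1 of 20 higher and 1 lower. Leaving out EV 20C replicate 2 gave 2 higher, leaving out EV 20C replicate 3 gave 0 higher, and leaving out EV 20C replicate 1 gave 2 lower. Somatic gonad genes summed to 1076 to 1178 FPKM in iff-1 RNAi 15C and 918 to 1244 FPKM in EV 20C, with 3 of 21 higher and 0 lower (5 higher without EV 20C replicate 2, and 1 lower when either EV 20C replicate 1 or replicate 2 of iff-1 RNAi 15C or replicate 3 of EV 15C was left out). Pharynx genes summed to 78.4 to 89.1 FPKM in iff-1 RNAi 15C and 77.6 to 83.8 FPKM in EV 20C, with 7 of 21 listed at 0 and 0 of 2 tested called (1 higher without EV 20C replicate 2). Neuronal genes summed to 340.3 to 347 FPKM in iff-1 RNAi 15C and 352 to 356 FPKM in EV 20C, with 5 of 11 higher and 1 lower (3 higher without iff-1 RNAi 15C replicate 1 or 2, and 2 lower without EV 20C replicate 1). Early embryo genes summed to 319 to 333 FPKM in iff-1 RNAi 15C and 309 to 331 FPKM in EV 20C, with 2 of 7 higher and 3 lower. Genes of coelomocytes, uterus and vulva summed to 25.8 to 26.7 FPKM in iff-1 RNAi 15C and 32.1 to 40.95 FPKM in EV 20C, with 3 of 5 lower. Of these marker sums, those of the cuticle, the neurons and the coelomocyte, uterus and vulva list did not overlap between the states. The cuticle sum was higher in iff-1 RNAi 15C, and the other sums without overlap were lower, that of the neurons through snb-1. The part of other cells in the cuticle and peptide results was not tested.

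Chromatin and signalling genes were called in both directions, more of them lower than higher, as were all tested genes (28.4% lower and 20.5% higher). Of 52 histone and histone methylation genes 23 were lower (44.2%) and 7 higher (13.5%), with a median of -0.13. Without iff-1 RNAi 15C replicate 3 or EV 20C replicate 3, 4 were higher. The core histone gene his-60 had 20.3, 16.9 and 23.9 FPKM in iff-1 RNAi 15C against 59.04, 54.8 and 56.6 FPKM in EV 20C (log2 -1.45, SE 0.10, adjusted p = 4.48e-05), and 27.4 to 30.2 FPKM in EV 15C. Reads of near-identical histone genes may be shared, which leaves its level uncertain. The H2A.Z variant gene htz-1 had 740, 787 and 793 FPKM in iff-1 RNAi 15C against 1132, 1003 and 1017 FPKM in EV 20C (log2 -0.44). In insulin, TOR and growth signalling 18 of 45 genes were lower (40%) and 8 higher (17.8%), with a median of -0.10. Among the lower ones was lip-1, a phosphatase of the MAP kinase pathway, with 97.8, 101.8 and 92.97 FPKM in iff-1 RNAi 15C against 124.4, 121.6 and 123.6 FPKM in EV 20C (log2 -0.33), and 91.6 to 95.5 FPKM in EV 15C. The RagA gene raga-1, which conveys amino acid supply to TOR, was lower (log2 -0.25).

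Other protein-coding genes had some of the largest differences. Among the 12 largest rises were lin-48, a zinc finger factor gene of the Ovo family, with 10.1, 9.12 and 8.86 FPKM in iff-1 RNAi 15C against 1.44, 2.49 and 1.89 FPKM in EV 20C (log2 1.83), avr-14, a glutamate-gated chloride channel gene (log2 1.74), pdfr-1, a neuropeptide receptor gene (1.57), and nlp-24, a neuropeptide-like gene (1.61). The lysozyme gene ilys-5 had 108.3, 71.9 and 99.1 FPKM in iff-1 RNAi 15C against 25.5, 44.3 and 23.6 FPKM in EV 20C. W05B10.4, F15E6.4, C03E10.3 and ZK177.9, of which no role is given here, rose by 1.68 to 1.79. The metallothionein gene mtl-2 (log2 1.61, adjusted p = 0.0252) lost its call when iff-1 RNAi 15C replicate 2 or 3 or EV 20C replicate 1 or 3 was left out, at adjusted p-values of 0.06844 to 0.08278. Among the 12 largest falls were the C-type lectin gene clec-266 (log2 -1.96), the linker histone gene his-24 (-1.34) and the early embryonic transcript vet-2, with 1.43, 1.46 and 1.73 FPKM in iff-1 RNAi 15C against 4.66, 5.88 and 5.21 FPKM in EV 20C (log2 -1.29).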

How the data were processed

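Germ line RNA was measured in 9 libraries, 3 in each of 3 groups. Per the labels' protocols, total RNA was taken with RNAbee, libraries were made with a stranded mRNA kit and sequenced in paired reads. The deposited values are FPKM per gene, made by the authors. The submitters' processing notes name CASAVA and Cufflinks. How reads were aligned, to which build and annotation, and whether strand was used is not given in the sources used here, so overlapping genes and near-identical copies remain uncertain: 1096 called genes share exonic sequence with a gene on the opposite strand in WBcel235 (Ensembl), from which positions and gene classes were taken for 45990 IDs, and 43227 IDs had a symbol. Among the genes described, the opposite strand bears on aak-2, aldo-2, avr-14, cct-7, cdc-25.3, clec-266, clec-87, cysl-3, dut-1, eif-3.H, exos-7, fbf-1, glp-1, gsr-1, his-24, hsp-90, iff-1, lin-48, lip-1, mcm-3, mus-81, nlp-24, nos-2, pdfr-1, rla-1, rpt-6, sip-1, snpc-1.3, sod-2, tofu-6, tyms-1, vit-2, vit-3, vit-4 and ZK177.9, and a gene on the same strand on chs-1, pdi-2, rfs-1 and rrp-8. Close copies make his-60, rpl-41.1, rpl-41.2, vit-3, vit-4, memi-2 and tba-1 uncertain. Depth was estimated from the steps of low values, and 74.4% to 76.9% of these lay within 0.25 of a whole number of fragments, too few to recover counts. No intervals or floors were derived from that estimate, and 0 values are called listed at 0.

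Differences were tested two-sided on log2(FPKM + 1) by limma 3.58.1 (R 4.3.3) with a variance trend, for genes with a mean of at least 1 FPKM. The fit held all 9 libraries and left 6 residual degrees of freedom. SE is limma's, and p-values were adjusted over the 8572 genes. The steps were tested on simulated data. Lists are described by counts and medians and were given no test, and subgroups within them were formed after values were seen. The 30 gene lists, 8 marker lists and the comparison itself were chosen with earlier results of these data known. Genes were named by rule: iff-1 and iff-2, the 12 largest called rises and falls without overlap among protein-coding genes, the 6 largest in FPKM each way, the 4 of smallest p in each list, and a few germ line and stress genes always. Genes outside it, such as rme-2, glh-1, unc-54, elt-2 and the fbf genes, were added after values were seen, and not all that it gives are printed. Alternatives were other pseudocounts, filters, scalings, library sets and variance settings, a replicate block and leaving out each library.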

Additional observations from a re-analysis of the deposited data

How the results depend on the processing

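The counts of 1759 higher and 2434 lower genes stayed within 1.5 times under every alternative run. They were 1758 and 2438 with a pseudocount of 0.1, 1753 and 2430 with 5, 2318 and 2235 without a filter on low values, 1288 and 2243 at a mean of at least 5 FPKM, 1496 and 2711 under median ratio scaling, 1956 and 2157 under quantile normalization, 1324 and 2749 with the 10 highest genes kept out of the scaling, 1626 and 2163 in the 6 libraries alone, and 1726 and 2332 without a variance trend. Leaving out 1 library at a time gave 1371 to 1766 higher and 1993 to 2458 lower genes. On the X chromosome, 26 genes were higher at a mean of at least 5 FPKM instead of 68; that filter tests fewer genes. The fall of iff-1 kept its direction and its call under all 19 alternatives.

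Same-numbered libraries did not deviate together (r = -0.19 to 0.08 over 9 such pairs), so the numbers were not taken to pair the samples. With the replicate block, 1722 genes were higher and 2329 lower, and on the X 68 and 428. Under the block, 8 cuticle genes were higher instead of 13, and 0 intestinal genes and 1 spermatogenesis gene were lower instead of 1 and 2. Depth is known only as an estimate, so genes near 1 FPKM carry the least certain values.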

Other observations

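Values listed at 0 in single libraries touched a few abundant genes. The initiation factor gene ifg-1 had 147.1, 0 and 0 FPKM in iff-1 RNAi 15C and 154.3, 167.8 and 162.8 FPKM in EV 20C, and the eggshell gene cpg-3 had 1027, 1084 and 1060 FPKM in iff-1 RNAi 15C and 1503, 0 and 1664 FPKM in EV 20C. The tubulin gene tbb-1 had 658, 670 and 0 FPKM in iff-1 RNAi 15C and 774, 766 and 769 FPKM in EV 20C. Of the genes that differed by a log2 of at least 2 without being called, 33 of 33 were listed at 0 in at least 1 of the 6 libraries. These genes were picked out after their values were seen, and no fold is given for them.

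Gene classes outside the lists also differed in their counts. Of 13 genes of the mitochondrial genome, 7 were higher and 0 lower in iff-1 RNAi 15C, with a median log2 of 0.34. A list of such genes by symbol matched only 3 of them, of which 0 were called. Of 234 pseudogenes, 69 were higher (29.5%) and 13 lower (5.56%, median 0.23). Of 59 snoRNA genes, 9 were higher (15.3%, beside 20.5% of all tested genes) and 0 lower. Autosomal genes in the lowest quartile of mean FPKM also leaned higher, with 28.1% higher and 9.35% lower (median 0.26). The part of expression level in the class counts was not tested. The autosomes were alike, with 19.4% to 24.7% of their genes higher and 23.4% to 29.6% lower. Splicing factor genes were lower in 25 and higher in 9 of 71 cases, and under quantile normalization 19 were higher. Genes of apoptosis and the DNA damage response were lower in 14 and higher in 4 of 58, and 7 were higher without EV 20C replicate 1, 2 without either EV 20C replicate 3 or iff-1 RNAi 15C replicate 3. Genes of tubulin, actin and their regulators were lower in 11 and higher in 3 of 32, with tba-1, an alpha-tubulin gene, at 640, 702 and 724 FPKM in iff-1 RNAi 15C and 905, 911 and 927 FPKM in EV 20C.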
